A study of Drosophila melanogaster with 12 samples.

Results

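*Pcl* binding was described at 8 genes for secreted signals of *Drosophila melanogaster*: the Wnt genes *wg*, *Wnt2*, *Wnt4*, *Wnt5*, *Wnt6* and *Wnt10*, the hedgehog gene *hh* and the BMP gene *dpp*. They were listed by name and are 8 of the 18119 genes with at least 2 GATC fragments on the chromosome arms analysed. *wg*, *Wnt4*, *Wnt6* and *Wnt10* lie next to each other on 2L and were also read as 1 cluster. The values came from 3 *Dam::Pcl* samples of flies on a sugar diet (30% sucrose) and 3 of flies on a control diet (5% sucrose), each made from 300 heads of both sexes. All 6 samples had the genotype Gr5a;tubulinGAL80ts>UAS-LT3-Dam::Pcl, in which the *Gr5a* driver limits *Dam::Pcl* to *Gr5a* sweet taste neurons and the temperature-sensitive GAL80 limits it to the end of the diet. The study's methods give 3 days of diet and then 20 hours at 28°C, whereas the labels give 1 day before a move to 29°C and titles of 4 days. In this assay, targeted DamID (TaDa), *Dam* fused to *Pcl* methylates GATC sites that it comes near, and each value is the log2 ratio of *Dam::Pcl* over *Dam* alone for a fragment between 2 such sites. *Dam* alone marks accessible chromatin, and a ratio above 0 means more *Dam::Pcl* than *Dam* signal. A rise or fall in binding below means a change in this ratio, which can come from *Dam::Pcl* or from *Dam* alone. The paper reports lower accessibility, read from *Dam* alone, on the sugar diet at *Pcl* peaks and Polycomb response elements. Its part in the differences at the genes below was not tested.

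*Pcl* is the accessory factor of PRC2.1, a form of the Polycomb complex that places the repressive mark H3K27me3. Genes for developmental signals are classical targets of Polycomb proteins in flies. Wnt and Hedgehog proteins are secreted, bind receptors on nearby cells and change transcription there through *pan* with *arm*, or through *ci*. Dpp, the fly counterpart of mammalian BMPs, acts through type I and type II receptor kinases and *Mad*. A binding ratio does not measure transcription, so nothing here says how strongly a signal gene was expressed.

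The fragment values had the same grid of 373710 fragments in every sample, with medians from 0 to 0.0107. The 0.95 quantile of the fragments, used below as the bar for bound fragments, lay between 1.87 and 2.19 in the sugar diet samples and between 1.61 and 1.92 in the control diet samples. The deposited ratios hold no read counts, so the depth is unknown. *Gr5a*, the receptor gene whose promoter drives the transgene, averaged 0.19 on the sugar diet and 0.23 on the control diet. *Gr66a*, the bitter neuron marker, averaged -0.42 on the sugar diet and -0.27 on the control diet. Levels over 8 sweet receptor genes lay between -0.37 and 0.86 on the sugar diet and between -0.43 and 0.23 on the control diet, and those over 3 bitter receptor genes between -0.56 and 0.48 on the sugar diet and between -0.47 and 0.94 on the control diet. These are binding levels and do not test the identity of the cells. Within a diet, no fragment at exactly 0 in 1 replicate was negative in another (12 ordered pairs), whereas between diets 8.99% to 15.7% of such fragments were negative (18 ordered pairs). Whether the 3 ratios of a diet share a *Dam* denominator is not given in the sources used here. If they do, its error is outside the spread between replicates on which every test below rests.

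Averaged from 1 kb before to 1 kb after each gene, *Pcl* binding rose with the sugar diet at *wg*, *Wnt2*, *Wnt5*, *Wnt6* and *hh*, and no signal gene was called lower. The test was limma on length-weighted mean ratios, sugar diet minus control diet, with Benjamini-Hochberg adjustment over all 18119 genes and a threshold of 0.05. The same fit called 22.3% of all genes higher and 25.7% lower. The median difference was 0.28 log2 units over the 8 signal genes and -0.007 over all genes tested. In these 5 genes every sugar diet replicate lay above every control diet replicate, a separation that 28.2% of all genes showed. The median level of the 8 genes was 0.93 on the sugar diet and 0.63 on the control diet, against -0.03 on the sugar diet and 0.04 on the control diet for all genes.

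**Figure D1:**
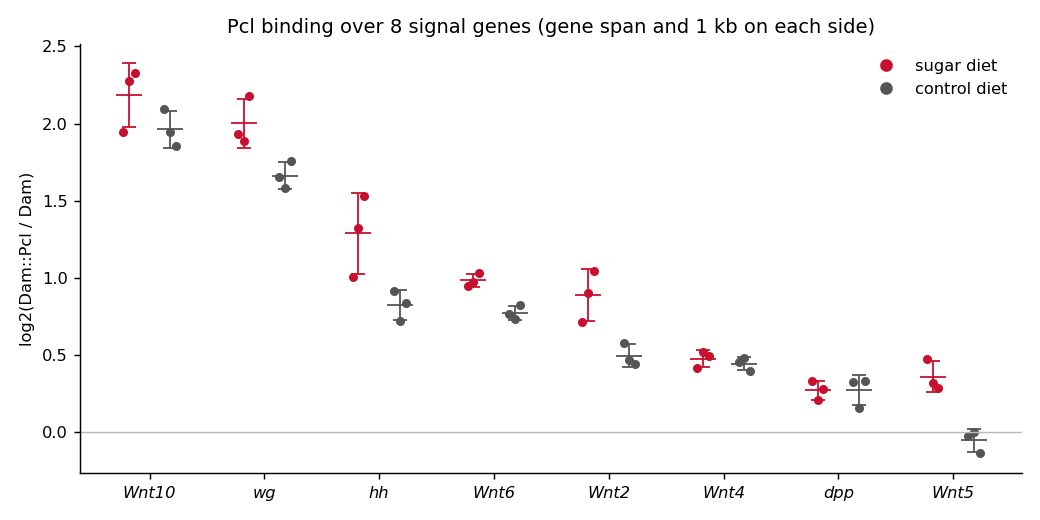
Length-weighted mean log2(Dam::Pcl/Dam) over each gene with 1 kb on each side, by sample (points, n = 3 per diet), with mean and SD (bars), sugar diet left of control diet. The diets separate at *wg*, *hh*, *Wnt6*, *Wnt2* and *Wnt5* and overlap at *Wnt10*, *Wnt4* and *dpp*.

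*Wnt10* and *wg* had the highest levels. *Wnt10*, a Wnt ligand gene at 2L:7363379-7377528 on the plus strand, measured 1.95, 2.27 and 2.33 in the sugar diet samples, against 2.09, 1.94 and 1.85 in the control diet samples. The diets overlapped, and the difference of 0.22 ± 0.12 log2 units (SE, 95% interval -0.08 to 0.53) did not pass the test (limma adjusted p = 0.184). *wg*, the founding Wnt gene and a morphogen of embryonic segments and wing, lies at 2L:7307159-7316265 on the plus strand. Its values were 1.94, 1.89 and 2.18 on the sugar diet and 1.65, 1.58 and 1.76 on the control diet. All sugar diet samples were higher, by 0.34 ± 0.09 log2 units on average (limma adjusted p = 0.032). *Wnt10* stood at the 97.2 percentile of all genes on the sugar diet and at 96.8 on the control diet, and *wg* at 96.7 on the sugar diet and 95.9 on the control diet.

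*hh*, the only Hedgehog ligand gene of the fly, lies at 3R:23128169-23141906 on the minus strand. It measured 1.01, 1.32 and 1.53 on the sugar diet, against 0.91, 0.72 and 0.84 on the control diet. The sugar diet samples were all higher but spread widely (SD 0.27, against 0.10 on the control diet). The mean difference was 0.46 ± 0.14 log2 units (limma adjusted p = 0.042). *Wnt6*, which acts with *wg* in the wing, lies at 2L:7333714-7352542 on the plus strand and had narrow groups. Its values were 0.95, 0.97 and 1.03 on the sugar diet and 0.76, 0.73 and 0.82 on the control diet, a difference of 0.21 ± 0.05 log2 units (limma adjusted p = 0.015).

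*Wnt2*, known from the male reproductive tract and the tracheae, lies at 2R:9494166-9503188 on the plus strand. It measured 0.71, 0.90 and 1.05 on the sugar diet and 0.58, 0.46 and 0.44 on the control diet, 0.39 ± 0.10 log2 units higher on the sugar diet (limma adjusted p = 0.021). *Wnt5*, a ligand of the Derailed receptor in axon guidance, lies at X:18501401-18505405 on the minus strand. Of the 8 genes, its rank changed most. It measured 0.47, 0.32 and 0.29 on the sugar diet, against -0.03, -0.00061 and -0.14 on the control diet, so that it stood at the 78.4 percentile of all genes on the sugar diet and at 39.4 on the control diet. The difference was 0.41 ± 0.07 log2 units (limma adjusted p = 0.0066).

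*Wnt4* and *dpp* had overlapping diets. *Wnt4*, a Wnt ligand gene with roles in cell movement and axon targeting, lies at 2L:7255419-7277171 on the minus strand. Its values were 0.41, 0.52 and 0.49 on the sugar diet and 0.45, 0.48 and 0.40 on the control diet (difference 0.03 ± 0.05, 95% interval -0.09 to 0.15, limma adjusted p = 0.618). *dpp*, at 2L:2428372-2459823 on the plus strand, measured 0.33, 0.21 and 0.28 on the sugar diet and 0.33, 0.16 and 0.33 on the control diet (difference -0.002 ± 0.067, 95% interval -0.17 to 0.16, limma adjusted p = 0.992). In the order of levels on the sugar diet, the samples of *Wnt10* and *wg* overlapped, as did those of *hh* and *Wnt6*, *Wnt6* and *Wnt2*, *Wnt4* and *Wnt5*, and *Wnt5* and *dpp*. On the control diet the neighbours that overlapped were *hh* and *Wnt6*, and *Wnt2* and *Wnt4*.

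These calls depended on the samples and on the scaling. Without control diet replicate 2, *Wnt5* alone passed (limma adjusted p = 0.101 for *wg*, 0.071 for *Wnt2*, 0.054 for *Wnt6* and 0.123 for *hh*). *wg* also missed the threshold without sugar diet replicate 1 (0.055) or control diet replicate 1 (0.086), and *Wnt2* without sugar diet replicate 2 (0.059) or control diet replicate 3 (0.063). *hh* missed it whichever of sugar diet replicates 2 and 3 and control diet replicates 1 and 3 was left out (0.102, 0.079, 0.076 and 0.092). *Wnt5* passed in all 6 fits that left out a sample. *Wnt10* passed without sugar diet replicate 1 (difference 0.34, limma adjusted p = 0.036). Strong signal was also stronger on the sugar diet over the whole genome. Over the 9104 fragments bound on both diets, the mean ratio was 3.81, 4.19 and 4.27 in the sugar diet samples and 3.70, 3.61 and 3.54 in the control diet samples. Scaled to the same mean over those fragments, *wg* differed by 0.11 (limma adjusted p = 0.354) and *Wnt6* by 0.10 (0.123), and *Wnt2*, *Wnt5* and *hh* passed. After quantile normalization between samples the same 3 genes passed. *wg* and *Wnt6* also missed the threshold with limma's trend and robust options (0.076 and 0.094), and *Wnt2* with 5 kb on each side (difference 0.20, 0.128).

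GC content moved with the difference. Across the 18119 genes, the difference by diet and the GC content of the window had a Pearson r of 0.67 and a Spearman rho of 0.68, given as a description, since genes share libraries and base composition. The 8 windows held between 39.9% GC (*Wnt6*) and 47.4% GC (*Wnt5*), with a median of 44.2% against 43.3% for all genes tested. A correction for GC content left *Wnt6* called (difference 0.52, limma adjusted p = 0.0033), brought *Wnt4* past the threshold (0.20, 0.037) and put *wg*, *Wnt2*, *Wnt5* and *hh* short of it (0.060, 0.171, 0.257 and 0.155).

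**Figure D2:**
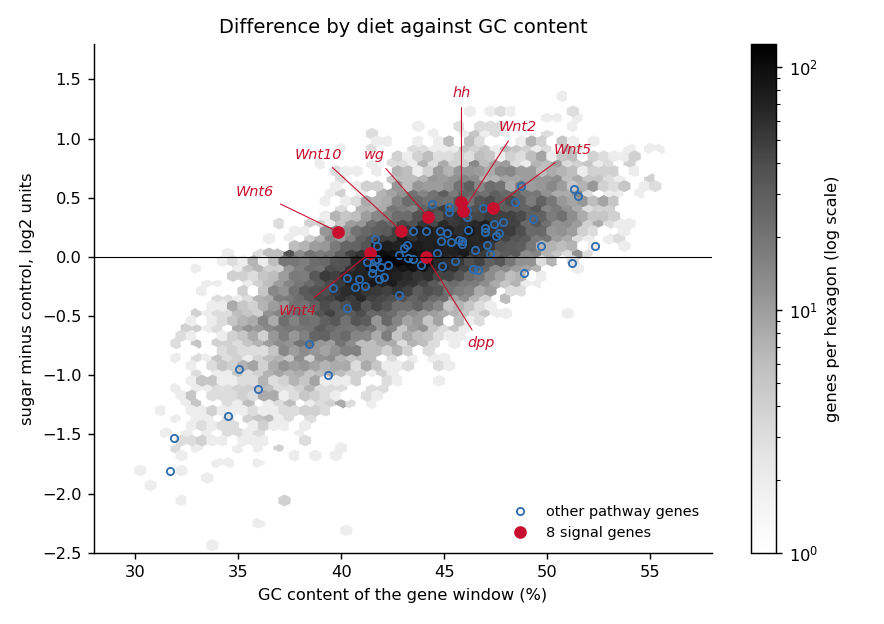
Sugar minus control difference in log2 units against GC content of the gene window, with all genes as hexagons shaded by their number (log scale), other pathway genes as open circles and the 8 signal genes as labelled points. The difference increases with GC content, and *Wnt6* has the lowest GC content (39.9%) of the 8. Of 18119 genes, 24 lie outside the axes.

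The bases before 5 of the genes, and those around a strongly bound *Wnt10* intron fragment, are shown because fragments described below cover all or part of them. The fragment of *wg* with the highest mean covers only the first part of the *wg* stretch. Each line holds 250 bases of the dm6 genome read 5′ to 3′ on the strand of the gene, and capitals mark GATC, the site that *Dam* methylates, GAGAG, the core read by the GAGA factor Trl, and GCCAT, the core read by Pho, each on either strand, and none of the 3 motifs contains another. Trl and Pho are DNA-binding proteins known at Polycomb response elements.
*hh*, 3R:23141907-23142156, minus strand: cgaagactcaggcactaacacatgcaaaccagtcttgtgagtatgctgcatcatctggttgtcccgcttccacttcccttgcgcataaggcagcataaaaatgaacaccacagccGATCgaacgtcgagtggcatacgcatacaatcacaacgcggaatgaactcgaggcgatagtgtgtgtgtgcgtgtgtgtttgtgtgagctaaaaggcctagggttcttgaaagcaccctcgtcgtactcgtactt
*Wnt5*, X:18505406-18505655, minus strand: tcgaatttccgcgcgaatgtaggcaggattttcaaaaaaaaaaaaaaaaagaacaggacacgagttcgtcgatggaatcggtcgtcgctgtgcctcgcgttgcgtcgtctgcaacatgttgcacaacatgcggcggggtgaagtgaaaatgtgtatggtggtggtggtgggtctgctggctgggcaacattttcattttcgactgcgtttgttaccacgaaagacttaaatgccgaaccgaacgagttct
*Wnt4*, 2L:7277172-7277421, minus strand: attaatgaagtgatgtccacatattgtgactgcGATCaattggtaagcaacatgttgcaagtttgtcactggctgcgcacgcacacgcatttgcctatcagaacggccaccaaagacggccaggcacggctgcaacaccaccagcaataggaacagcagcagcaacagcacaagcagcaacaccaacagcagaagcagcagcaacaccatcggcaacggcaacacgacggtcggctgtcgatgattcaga
*wg*, 2L:7306909-7307158, plus strand: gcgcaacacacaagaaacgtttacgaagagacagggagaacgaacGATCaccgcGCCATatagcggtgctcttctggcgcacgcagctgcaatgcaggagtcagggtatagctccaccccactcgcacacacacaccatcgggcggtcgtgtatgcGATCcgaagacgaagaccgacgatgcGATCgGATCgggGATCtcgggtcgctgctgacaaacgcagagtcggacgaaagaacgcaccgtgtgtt
*Wnt10*, 2L:7363129-7363378, plus strand: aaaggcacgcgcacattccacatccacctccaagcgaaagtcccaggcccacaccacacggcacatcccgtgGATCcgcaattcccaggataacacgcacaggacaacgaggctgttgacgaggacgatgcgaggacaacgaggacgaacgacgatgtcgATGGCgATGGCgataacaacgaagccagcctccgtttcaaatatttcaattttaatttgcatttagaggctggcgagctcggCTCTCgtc
*Wnt10* intron, 2L:7368753-7369002, plus strand: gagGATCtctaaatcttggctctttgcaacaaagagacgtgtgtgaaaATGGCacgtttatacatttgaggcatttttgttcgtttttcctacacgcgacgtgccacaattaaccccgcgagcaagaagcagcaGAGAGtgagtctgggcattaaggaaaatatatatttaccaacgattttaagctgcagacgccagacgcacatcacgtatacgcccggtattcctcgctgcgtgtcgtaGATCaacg

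The stretches before *hh*, *Wnt5* and *Wnt4*, the 3 genes with the largest rises past the threshold at the 5′ end, held neither GAGAG nor GCCAT. That before *wg* held 1 GCCAT and 5 GATC sites, and that before *Wnt10* held 1 GAGAG and 2 GCCAT. Of the stretches read but not printed, that before *Wnt6*, also called higher at the 5′ end, held 2 GCCAT. A stretch in a *Wnt6* intron (2L:7341650-7341899) held 1 GCCAT. The bases before *Wnt2*, the other gene called higher at the 5′ end, were not examined singly. The stretch before *dpp* held 1 GAGAG and 1 GCCAT. The intron stretch of *Wnt10* held 1 GAGAG, 1 GCCAT and 2 GATC sites. Among 18164 such stretches before genes, 25.2% held GAGAG, 35.8% GCCAT and 39.0% GATC, and among 534531 stretches of 250 bases of the 6 chromosome arms 26.0% held GAGAG, 41.8% GCCAT and 45.1% GATC. A match in these letters is a description and not a binding site.

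Within 1 kb of the 5′ end, binding rose with the sugar diet at *hh*, *Wnt5*, *Wnt4*, *Wnt6* and *Wnt2*, 5 of the 8 genes, and was called lower at none, in a fit that called 21.7% of all 17962 5′ ends higher. Sugar diet and control diet samples did not overlap at 6 of the 8 5′ ends, *dpp* being the sixth, whereas 28.4% of all 5′ ends had every sugar diet sample above. The median difference was 0.53 log2 units over the 8 genes and 0.00 over all genes.

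The 5′ end of *Wnt5* was near 0 on the control diet. It measured 0.91, 0.98 and 1.40 on the sugar diet, against 0.16, 0.04 and -0.13 on the control diet, a difference of 1.07 ± 0.16 log2 units (limma adjusted p = 0.0049). The 5′ end of *hh* was bound on both diets. Its values were 2.98, 3.15 and 3.96 on the sugar diet and 2.46, 2.29 and 2.25 on the control diet (difference 1.03 ± 0.27, limma adjusted p = 0.027). *Wnt4* measured 1.45, 1.69 and 1.40 on the sugar diet and 0.88, 0.82 and 1.05 on the control diet (difference 0.59 ± 0.11, limma adjusted p = 0.0086), whereas its whole span did not pass the test. *Wnt6* and *Wnt2* were higher by 0.47 ± 0.11 and 0.44 ± 0.09 log2 units (limma adjusted p = 0.021 and 0.013).

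The 5′ ends of *wg* and *Wnt10*, the most strongly bound on the control diet, showed no such rise. On the sugar diet the samples of *Wnt10* and *hh* overlapped there. The 5′ end of *wg* measured 4.17, 4.38 and 4.53 on the sugar diet and 4.29, 4.10 and 4.25 on the control diet (difference 0.15 ± 0.11, limma adjusted p = 0.321). That of *Wnt10* measured 3.11, 3.57 and 3.44 on the sugar diet and 3.84, 3.64 and 3.26 on the control diet (difference -0.20 ± 0.19, limma adjusted p = 0.432). The 5′ end of *dpp* was below 0 on average on both diets, -0.18, -0.49 and 0.40 on the sugar diet against -0.55, -0.93 and -0.73 on the control diet (difference 0.64 ± 0.25, limma adjusted p = 0.081). In settings chosen after the data were seen, *Wnt2*, *Wnt5* and *hh* passed at the 5′ end after quantile normalization and, with *Wnt4*, after GC correction. *Wnt4* and *Wnt6* had limma adjusted p-values of 0.053 and 0.091 after quantile normalization, and *Wnt6* 0.051 after GC correction. *hh* missed the threshold without control diet replicate 1, 2 or 3 (limma adjusted p = 0.063, 0.082 and 0.074), and *Wnt6* without sugar diet replicate 2 or 3 or control diet replicate 1 (0.058, 0.058 and 0.060), while *dpp* passed without sugar diet replicate 2 (0.040). *Wnt10* was called lower under quantile normalization (-0.54, limma adjusted p = 0.0081). Both *Wnt10* and *wg* were called lower when all samples were scaled to the same mean over bound fragments (-0.63 and -0.38, limma adjusted p = 0.013 and 0.022). No direction is therefore given for the 5′ end window of either gene.

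**Figure D3:**
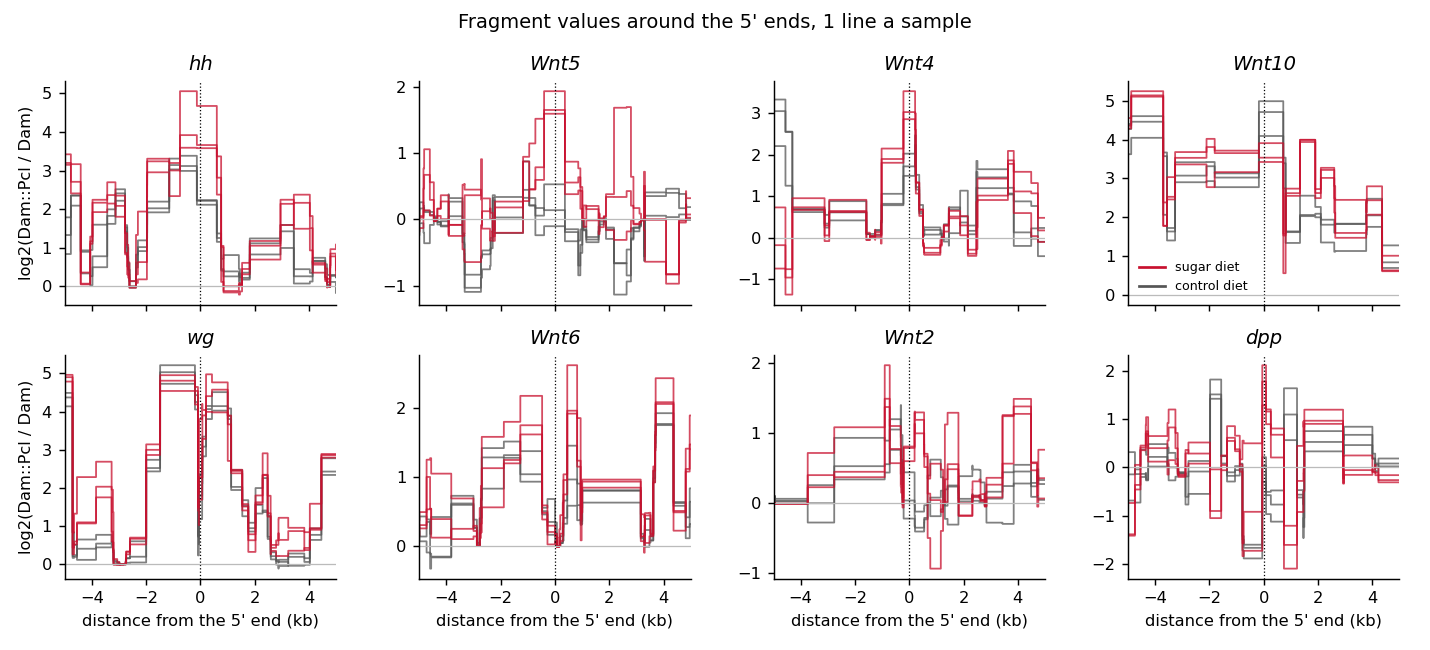
log2(Dam::Pcl/Dam) of each GATC fragment against the distance from the annotated 5′ end in kb, in the direction of transcription, 1 line a sample (3 sugar diet, 3 control diet). The fragments over the 5′ ends of *hh*, *Wnt5* and *Wnt4* are higher in all 3 sugar diet samples. The samples of the 2 diets overlap on the plateau before *wg*. The fragment over the 5′ end of *Wnt10* is lower on the sugar diet in these values, but was not called after GC correction (difference -0.23, limma adjusted p = 0.328).

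Single fragments differed by diet at the 5′ ends and elsewhere in the genes. The fragment of 735 bp over the 5′ end of *hh*, with 5′ UTR and coding sequence (3R:23141305-23142039), measured 3.58, 3.66 and 4.67 on the sugar diet and 2.22, 2.24 and 2.12 on the control diet (difference 1.78 ± 0.32, limma adjusted p = 0.014 over 342811 fragments). The next fragment upstream, 3R:23142040-23142660, was also strongly bound but did not pass, at 3.59, 3.92 and 5.06 on the sugar diet and 3.38, 2.99 and 3.12 on the control diet (limma adjusted p = 0.116). At *Wnt5*, the fragment of 767 bp across the start (X:18505036-18505802) measured 1.60, 1.66 and 1.94 on the sugar diet, against 0.53, 0.14 and -0.10 on the control diet (difference 1.54 ± 0.19, limma adjusted p = 0.0060). At *Wnt4*, the fragment of 430 bp across the start (2L:7276957-7277386) measured 2.86, 3.53 and 3.03 on the sugar diet and 1.72, 1.49 and 2.02 on the control diet (difference 1.40 ± 0.23, limma adjusted p = 0.012). These 3 fragments hold 48.3%, 43.9% and 49.8% GC, and after GC correction of the fragment values, an alternative chosen after the data were seen, the differences were 1.62, 1.56 and 1.19, with all 3 past the threshold. Among fragments of at least 100 bp, however, the largest rise at *hh* and at *Wnt4* lay in an intron. The *hh* intron fragment (3R:23135819-23136162) averaged 2.225 on the sugar diet and 0.20 on the control diet (difference 2.03 ± 0.33, limma adjusted p = 0.011). The *Wnt4* intron fragment (2L:7268935-7269481) averaged 1.775 on the sugar diet and 0.33 on the control diet (difference 1.45 ± 0.20, limma adjusted p = 0.0077).

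*Wnt10* gained and lost binding within its own span. The fragment of 899 bp over its 5′ end (2L:7363203-7364101) measured 3.42, 3.91 and 3.53 on the sugar diet, against 4.99, 4.71 and 4.09 on the control diet, and fell by 0.98 log2 units (SE 0.27, limma adjusted p = 0.047). This fragment has 34.0% GC, and its difference was -0.23 after GC correction (limma adjusted p = 0.328). Further in, the fragment of 561 bp at 2L:7364718-7365278, with 5′ UTR and coding exon, measured 3.94, 3.995 and 3.995 on the sugar diet and 2.02, 2.06 and 2.55 on the control diet (difference 1.77 ± 0.16, limma adjusted p = 0.0034). An intron fragment of 239 bp at 2L:7368758-7368996 also rose, with 4.70, 4.76 and 4.20 on the sugar diet and 3.45, 3.37 and 3.65 on the control diet (difference 1.06 ± 0.18, limma adjusted p = 0.012, 0.123 after quantile normalization). An intron fragment of 272 bp at 2L:7373295-7373566 fell, with 0.62, 0.82 and 0.82 on the sugar diet and 2.67, 2.08 and 2.16 on the control diet (difference -1.55 ± 0.18, limma adjusted p = 0.0052). Its GC content was 43.8%, and after GC correction its difference was -1.52.

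Of the 139 fragments of *dpp*, 16 were called higher (11.5%) and 21 lower (15.1%), in a fit that called 16.4% of all fragments higher and 17.5% lower. The fragment of 177 bp in the 5′ UTR (2L:2428460-2428636) measured 1.2, 0.89 and 1.16 on the sugar diet, against -0.51, -0.97 and -0.57 on the control diet (difference 1.77 ± 0.16, limma adjusted p = 0.0034). An intron fragment of 482 bp further in (2L:2429119-2429600) measured -2.10, -1.21 and -1.60 on the sugar diet, against 1.64, 1.09 and 0.56 on the control diet (difference -2.73 ± 0.36, limma adjusted p = 0.0067). Both fragments passed after GC correction, with differences of 1.801 and -2.38. Fragments at or past the 3′ ends of *hh*, *Wnt4*, *Wnt5* and *Wnt6* fell. The differences were -1.18 at *Wnt5* (X:18500834-18501310) and -0.99 at *Wnt6* (2L:7352145-7353334), with limma adjusted p = 0.0048 and 0.0058. After GC correction they were -0.57 and -0.59, both past the threshold. A fragment in the 3′ UTR of *hh* (3R:23128433-23128620) measured -0.72, -0.42 and -0.59 on the sugar diet, against 1.39, 0.68 and 0.83 on the control diet (difference -1.54 ± 0.21, limma adjusted p = 0.0074). The fragment past the 3′ end of *Wnt4* at 2L:7254544-7254899 was 2.25 ± 0.21 log2 units below its control diet level (limma adjusted p = 0.0035) and holds 28.7% GC, with a difference of -1.59 after GC correction (0.0029).

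Over all 8 windows, 92 of 529 fragments tested were called higher (17.4%) and 48 lower (9.07%), against 16.4% higher and 17.5% lower among all fragments tested. The share called higher was thus near that of the genome. By gene, the counts of fragments called higher and lower were 4 and 0 at *wg*, 12 and 0 at *Wnt2*, 5 and 10 at *Wnt4*, 7 and 1 at *Wnt5*, 18 and 4 at *Wnt6*, 18 and 9 at *Wnt10*, and 12 and 3 at *hh*. The total of 140 called fragments was 90 without control diet replicate 1 and 92 without control diet replicate 2.

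Stretches of strong binding were found in 4 of the 8 genes on each diet. A bound run was at least 2 consecutive fragments that each lay above the 0.95 quantile of their own sample in all 3 replicates of a diet, with no test. Runs were present in *wg*, *Wnt6*, *Wnt10* and *hh* on the sugar diet and in the same 4 on the control diet, and 8.81% of all genes held one on the sugar diet and 9.93% on the control diet. They covered 37.0% of the *wg* window on the sugar diet and 33.5% on the control diet. In the *Wnt10* window they covered 41.6% on the sugar diet and 43.9% on the control diet. In *hh* the shares were 11.9% on the sugar diet and 10.9% on the control diet, and in *Wnt6* 10.5% on the sugar diet and 9.87% on the control diet. With the quantile at 0.99, *wg* alone held a run on either diet, and with 0.90 every signal gene but *Wnt5* did. With single fragments allowed, *Wnt4* was added on both diets.

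Some runs were shared by the diets and others were not. The run before *wg* (2L:7305160-7307066, 1907 bp in 3 fragments) was the same on both and averaged 4.07, 4.41 and 4.34 on the sugar diet and 4.44, 4.37 and 4.07 on the control diet. Within it, the fragment of 1283 bp at 2L:7305673-7306955 had the highest mean over the 6 samples of any fragment of at least 100 bp in the *wg* window, at 4.54, 4.95 and 4.81 on the sugar diet and 5.21, 5.03 and 4.73 on the control diet. A run of 436 bp in *wg* (2L:7313933-7314368) met the rule on the sugar diet only. The run over the start of *hh* spanned 2733 bp on the sugar diet (3R:23141146-23143878) and 2565 bp on the control diet (3R:23141305-23143869). *Wnt10* had 5 runs on the sugar diet and 7 on the control diet. A control diet run of 311 bp in an intron (2L:7373295-7373605) averaged 0.65, 0.84 and 0.83 on the sugar diet and 2.65, 2.06 and 2.16 on the control diet. In *Wnt6*, both runs lay in introns on the control diet, and the run at 2L:7339509-7340459 was the same on both diets. The other *Wnt6* run lay at 2L:7341488-7342863 on the sugar diet and at 2L:7340836-7342061 on the control diet. The *Wnt10* run over 5′ UTR and coding exon was longer on the sugar diet, 1825 bp against 767 bp on the control diet.

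The Wnt cluster was more strongly bound than the 25 kb on each side of it. From *Wnt4* to *Wnt10* with 1 kb on each side (2L:7254419-7378528, 124110 bp, 466 fragments), *Pcl* binding averaged 1.12, 1.24 and 1.31 on the sugar diet, against 1.102, 1.06 and 1.05 on the control diet. Every sugar diet sample was higher, and the difference of 0.16 log2 units had an exact two-sided permutation p of 0.1, the smallest that 3 samples against 3 can give. The 25 kb before the cluster ran the other way, at -0.11, -0.02 and -0.08 on the sugar diet and 0.40, 0.41 and 0.25 on the control diet (difference -0.43, exact permutation p = 0.1). The 25 kb after it averaged 0.04 ± 0.10 on the sugar diet and 0.21 ± 0.07 on the control diet (SD, n = 3 each). The difference of the cluster depended on scaling. It was 0.02 after quantile normalization (exact permutation p = 0.7) and 0.01 with the same mean over bound fragments (0.7), and its sign turned when each sample was centred and divided by its median absolute deviation.

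**Figure D4:**
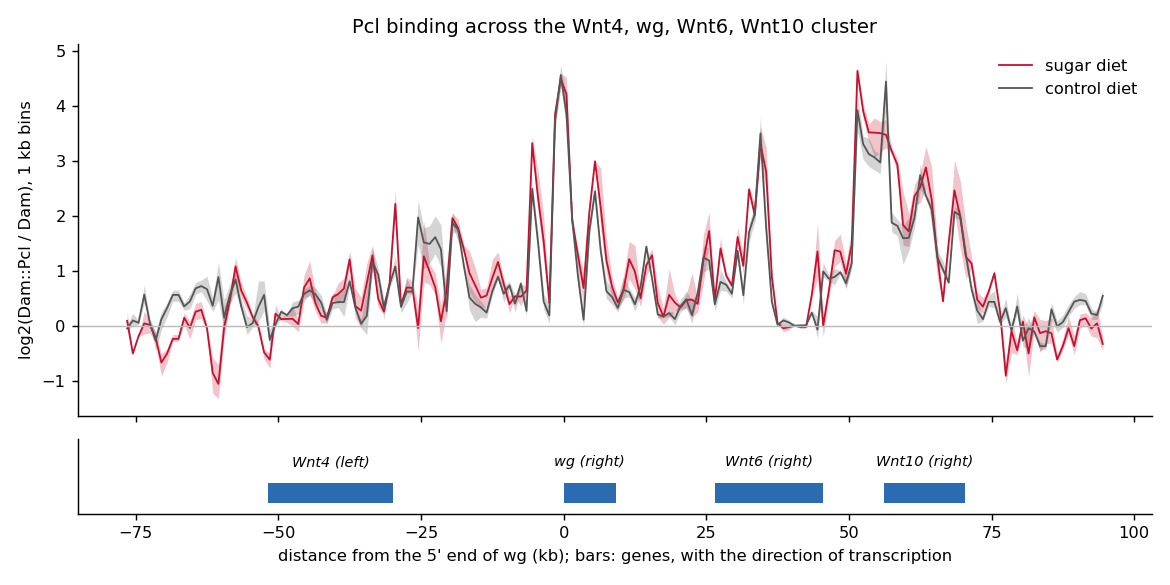
Mean log2(Dam::Pcl/Dam) in 1 kb bins across the cluster and 25 kb on each side, against the distance in kb from the 5′ end of *wg*, with the mean (line) and range (shading) of 3 samples per diet and the genes as bars below. Peaks lie at the start of *wg*, in *Wnt6* and around *Wnt10*, and both flanks average lower on the sugar diet.

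Binding in the cluster also lay between its genes. The 10836 bp between *Wnt6* and *Wnt10* were the most strongly bound stretch, at 2.23, 2.39 and 2.49 on the sugar diet and 2.17, 2.14 and 1.94 on the control diet, and runs covered 49.2% of it on the sugar diet and 47.9% on the control diet. The 29987 bp between *Wnt4* and *wg*, whose starts face away from each other, averaged 1.21 ± 0.14 on the sugar diet and 1.15 ± 0.05 on the control diet. The 17448 bp between *wg* and *Wnt6* averaged 0.72 ± 0.02 on the sugar diet and 0.58 ± 0.05 on the control diet and held no run. Runs covered 15.1% of the whole cluster on the sugar diet and 14.8% on the control diet, and none of either flank. Over the cluster, 68 of 445 fragments tested were called higher (15.3%) and 35 lower (7.87%), against 16.4% higher and 17.5% lower among all fragments.

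Few other genes shared the windows. *Ggt-1*, whose 3′ end lies upstream of the start of *Wnt5*, was higher on the sugar diet as well (0.48, limma adjusted p = 0.025), and its window shares the fragments at that start. The window of the antisense RNA *asRNA:CR44063*, inside *Wnt10*, averaged 2.84 on the sugar diet and 2.57 on the control diet (limma adjusted p = 0.164). *brp*, which lies downstream of *Wnt2*, averaged 0.12 on the sugar diet and 0.25 on the control diet (limma adjusted p = 0.261). Of the other overlapping windows, that of *tRNA:Tyr-GTA-1-2* beside *dpp* was lower on the sugar diet (-0.74, limma adjusted p = 0.012).

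**Figure D5:**
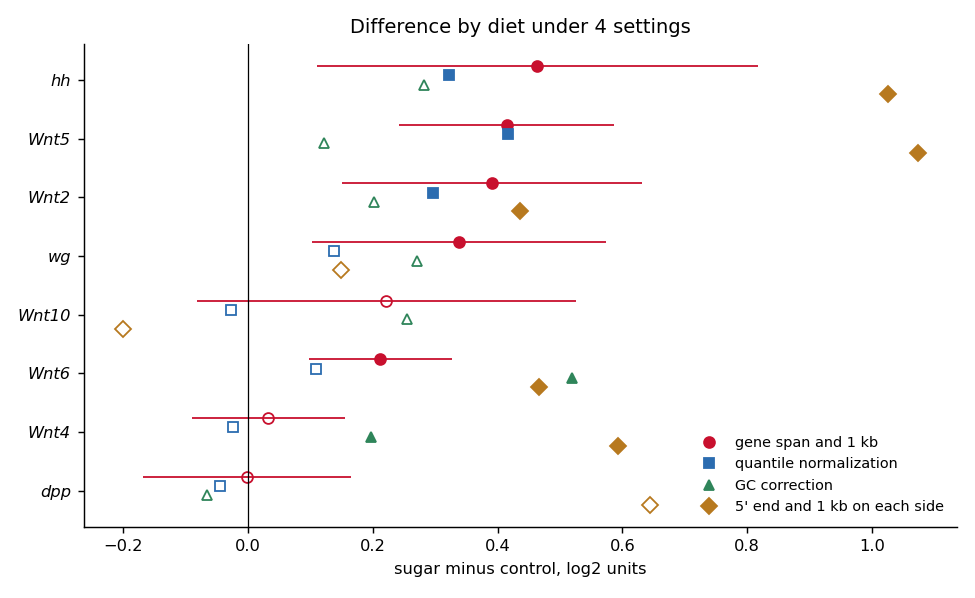
Sugar minus control difference in log2 units at each signal gene, over the gene span (circles, with 95% interval), after quantile normalization (squares), after GC correction (triangles) and at the 5′ end (diamonds). Filled symbols passed an adjusted p of 0.05. *hh* and *Wnt5* have the largest 5′ end differences, 1.03 and 1.07.

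Other genes of the 3 pathways, most of which receive or relay the signals, were called in shares near those of all genes before GC correction. The list held 71 genes of the Wnt (33), Hh (14) and BMP/activin (24) pathways, written by hand. Of these, 18 were called higher on the sugar diet (25.4%) and 14 lower (19.7%), against 22.3% higher and 25.7% lower among all genes. Their median difference was 0.06 log2 units, and their median level was 0.03 on the sugar diet and 0.01 on the control diet. Bound runs were present in 9 of the 71 on the sugar diet and in 12 on the control diet, against 8.81% of all genes on the sugar diet and 9.93% on the control diet. After GC correction 4 of the 71 were called higher (5.63%) and 13 lower (18.3%), against 14.6% higher and 18.7% lower among all genes.

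In the Hh pathway 7 of 14 genes were called higher and 2 lower, against 22.3% higher and 25.7% lower among all genes. None of the 7 was called higher after GC correction. All 4 receptor genes were higher: the Hh receptor *ptc* (0.59 ± 0.10 on the sugar diet, 0.20 ± 0.07 on the control diet, difference 0.39), the signal transducer *smo* (difference 0.20) and the co-receptors *ihog* (0.46) and *boi* (0.23). All 4 differences were positive under the 3 other scalings, *boi* missing the threshold under 2 of them. None of the 4 passed after GC correction (limma adjusted p = 0.063, 0.459, 0.525 and 0.780 in that order). *ptc*, *smo* and *boi* were named after their values were seen, and the Hh receptor genes were not tested as a set. Of the Wnt receptor genes 3 of 11 were called higher and 2 lower. Of the BMP/activin receptor genes 0 of 5 were called higher and 1 lower. *Su(fu)*, an inhibitor of *ci*, was higher by 0.51 and *rasp*, the acyltransferase that lipidates Hh, by 0.60, while *pygo*, a co-activator of Wnt targets, was higher by 0.57 and *cv-2*, a BMP-binding protein, by 0.44. Of these, *cv-2* passed after GC correction (limma adjusted p = 0.026). When a sample was left out, *pygo*, *ihog*, *smo* and *cv-2* missed the threshold in at least 1 of 6 fits, up to a limma adjusted p of 0.086, 0.068, 0.064 and 0.051.

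The largest falls were at *pan*, *myo*, *ci*, *mav* and *CkIalpha*. *pan*, the TCF factor of Wnt signalling, measured -1.08, -0.74 and -0.79 on the sugar diet, against 1.18, 1.105 and 0.54 on the control diet (difference -1.81, limma adjusted p = 0.0025). *ci*, the transcription factor of Hh signalling, measured -0.79, -0.61 and -0.58 on the sugar diet, against 0.88, 0.73 and 0.46 on the control diet (difference -1.35, limma adjusted p = 0.0021). The activin-type ligand genes *myo* and *mav* fell by 1.53 and 1.11 log2 units, and *CkIalpha*, a kinase of the destruction complex, fell by 1.00. *pan*, *ci*, *myo* and *mav* lie on chromosome 4, and their windows hold 31.7% to 36.0% GC. After GC correction the differences of *pan*, *ci*, *myo*, *mav* and *CkIalpha* were -0.58, -0.47, -0.34, -0.40 and -0.64, all past the threshold.

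Besides *pan*, *ci* and *mav*, pathway genes with a bound run on either diet were the Wnt receptor genes *fz*, *fz2*, *fz4* and *Drl-2*, the glypican gene *dally*, the Wnt inhibitor gene *Axn*, the kinase gene *sgg*, *ttv*, which builds heparan sulphate, the activin-type ligand gene *daw*, the receptor gene *put*, the BMP inhibitor gene *sog* and the zinc finger factor gene *shn*. *Axn* was the most strongly bound, at 1.98 ± 0.09 on the sugar diet and 1.59 ± 0.14 on the control diet (difference 0.40, limma adjusted p = 0.016, 0.169 after GC correction and 0.070 with the same mean over bound fragments). *Drl-2*, a Derailed-type Wnt receptor, was higher by 0.38 (limma adjusted p = 0.0059), and remained past the threshold after GC correction (0.045) and in each of the 6 fits that left out a sample. Differences were -0.27 at *fz*, -0.26 at *ttv* and -0.25 at *shn* (limma adjusted p = 0.019, 0.032 and 0.036). None of the 3 was called after GC correction, and each missed the threshold in at least 3 of the 6 fits. The rest of this group was not called, with differences between -0.19 (*sgg*) and 0.25 (*fz4*).

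For each signal gene, the gene more than 50 kb away with the most similar 6 values was found by Euclidean distance. *Drl-2* was the nearest to *Wnt2* (distance 0.13), *bab1* to *Wnt6* (0.12), *Pka-C2* to *hh* (0.14) and *bowl* to *dpp* (0.07). For *wg* it was *lncRNA:CR46451* (0.10), for *Wnt10* *CG15549* (0.14), for *Wnt4* *CG12702* (0.08) and for *Wnt5* *CG30284* (0.16). These are likenesses over 6 samples in level and difference.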

How the data were processed

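The 6 *Dam::Pcl* samples, 3 per diet, were read as deposited. According to the methods, reads of quality 30 or more were aligned with Bowtie2 to dm6 (BDGP6), extended by up to 300 bp, and turned by the authors into the deposited log2 ratio of *Dam::Pcl* over *Dam* for each GATC fragment. The normalization option and pseudocount of that step are not given in the sources used here, and profiles of *Dam* alone were not analysed here. Depth is unknown without read counts, and 3 samples per diet limit the precision.

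Means weighted by fragment length were taken on 2L, 2R, 3L, 3R, 4 and X with numpy 2.4.6 and pandas 2.3.3 (Python 3.11.15), for genes of the Ensembl BDGP6.54 annotation. Of 18164 genes, 18119 had at least 2 fragments. DiffBind, which the methods name, needs reads, so limma 3.58.1 was run in R 4.3.3 (lmFit, eBayes, Benjamini-Hochberg). The fragment fit left out 30899 fragments at exactly 0 in all 6 samples. The cluster was compared by an exact permutation test with scipy 1.17.1. In simulated data over 18119 genes, 200 of them with a log2 difference of 1, limma recovered 179 and made 11 false calls. The planted difference exceeded those of the called signal genes (0.21 to 0.46), and the noise was drawn independently. These counts therefore check that the fit ran and give no error rate for the calls above. For GC correction, a quadratic in GC content that varies with the mean level was fitted to how far each sample deviates from the 6-sample mean, and subtracted. Printed sequences are from the RefSeq dm6 assembly. The labels call the samples within a diet biological replicates.

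The signal genes and the pathway list were chosen with earlier results of these data known. Named were the 8 signal genes, the pathway genes with a bound run and those with the 5 largest rises and the 5 largest falls past the threshold, the nearest gene by pattern to each signal gene, *Gr5a* and *Gr66a*. The genes *ptc*, *smo* and *boi*, the overlapping genes and the single fragments, taken from those of at least 100 bp with the highest values or largest differences, were named after their values were seen. Of the 71 listed pathway genes, 1 was matched without regard to case. Alternatives were other scalings, other windows, GC correction, a replicate block, other limma settings and each sample left out. For the 5′ ends, all of these were chosen after the data were seen, as was GC correction of the fragments.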

Additional observations from a re-analysis of the deposited data

How the results depend on the processing

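The number of signal genes called over the gene span, 5 in the main fit, was 3 with limma's trend and robust options, with quantile normalization and with the same mean over bound fragments, 2 with ratios less the sample's median expressed in median absolute deviations (MAD), 2 after GC correction, 1 with GC correction and the replicate block together, and 1 at an adjusted p under 0.01. Leaving out a sample gave 1 (without control diet replicate 2) to 5. These totals do not always hold the same genes. After GC correction they were *Wnt6* and *Wnt4*, and without sugar diet replicate 1 *Wnt10* was called and *wg* was not. Over 20 alternatives the call held in 9 for *wg*, 12 for *Wnt2*, 18 for *Wnt5*, 14 for *Wnt6* and 10 for *hh*. Pathway genes called numbered 32 in the main fit, 17 after GC correction, 9 with GC correction and the replicate block, and 14 at an adjusted p under 0.01, and 19 (without control diet replicate 2) to 27 when a sample was left out. Of all genes, 8693 were called, 3927 with GC correction and the block, and 4617 at an adjusted p under 0.01. Genes called higher numbered 4032, but 2641 after GC correction and 2583 without control diet replicate 2. Pathway genes called higher fell to 4 after GC correction and 9 without control diet replicate 2, against 18, and those called lower numbered 8 with the replicate block and 9 with a plain mean of fragments or without sugar diet replicate 1, sugar diet replicate 3 or control diet replicate 1, against 14.

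The deviations of same-numbered samples of the 2 diets had correlations of mixed sign (r of -0.30, 0.21 and -0.21 for numbers 1 to 3). With 3 samples per diet, these values cannot settle whether the replicate numbers pair the samples. With the replicate block, 3 signal genes were called over the gene span, 3 at the 5′ end and 20 pathway genes, and 104 fragments were called, against 140 without it.

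None of the values whose sign turned had been called before the alternatives were applied. *dpp* ran from -0.060 to 0.030 when a sample was left out, and was 0.11 with a plain mean of fragments, 0.015 with 5 kb flanks and 0.64 at the 5′ end. *Wnt4* was -0.024 with quantile normalization, -0.025 with the same mean over bound fragments, -0.018 with a plain mean, -0.029 with 5 kb flanks and -0.17 in MAD units. *Wnt10* was -0.028 with quantile normalization, -0.035 with the same mean and -0.58 in MAD units, and -0.20 at the 5′ end. At the 5′ end, *wg* was -0.21 with quantile normalization and -0.38 with the same mean over bound fragments. With the same mean, *wg* was called lower there. *Wnt10* was 0.21 at the 5′ end after GC correction. The cluster difference was -0.18 in MAD units (exact permutation p = 0.8), 0.29 log2 units after GC correction, and 0.11 to 0.21 when a sample was left out. The cause of these changes was not tested. At the 5′ end, 3 to 5 signal genes were called when a sample was left out. Over the gene windows, 90 to 137 fragments were then called, against 140. Signal genes with a bound run numbered 7 on each diet at the 0.90 quantile and 1 on each diet at 0.99, against 4. Without sugar diet replicate 1, 6 held a run on the sugar diet. Without read counts, what depth limits cannot be said.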
